A study of Macaca mulatta with 38 samples.

Results

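The genes described here are 34 genes of cholesterol and fatty acid metabolism, taken by name from a count table of 34619 genes, in cultured fetal cortical neural stem cells of the rhesus macaque. They were sorted by role into 17 enzymes of the sterol pathway, 6 regulators of the SREBP transcription factors that control it, 8 enzymes of fatty acid synthesis and 3 genes of cholesterol efflux and lipoprotein receptor turnover. All 34 had a row, 33 under their symbol and HSD17B7 under its gene ID. All 34 were among the 20794 genes with enough reads to be tested, and the lowest count of any of them in any library was 23 reads, for MYLIP.

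The cultures came from wild-type fetuses at embryonic day 42 (E42), from Anterior and Posterior cortex, and at embryonic day 77 (E77), from Frontal and Occipital cortex. All 4 series of cultures were grown at low oxygen on coated plates in N2 medium with FGF2, a growth factor that keeps neural stem cells dividing, and were sampled on days 1, 3 and 5 (the stem phase). FGF2 was then withdrawn and the medium changed to NeuroBasal with B27, BDNF and NT-3, with libraries on days 6, 7 and 8 (the transition phase) and on days 11, 14 and 17, and at E77 also day 20 (the terminal phase). FGF2 withdrawal and the change of medium took place together and cannot be told apart. Each series has 1 library per day, from RNA of 2 wells, which gave 38 libraries in all, 12 of the stem, 12 of the transition and 14 of the terminal phase. Nothing in the labels ties a series or a day to an animal of its own, so p-values measure the spread between these days and series only. Each age and region is 1 series of cultures, so differences between ages or regions cannot be told apart from those between dissections or cultures, and the ages come from different fetuses.

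Cells make cholesterol from acetyl-CoA through mevalonate, squalene and lanosterol, and the brain depends on its own synthesis because lipoproteins of the blood do not cross into it. The sterol genes are driven by SREBP-2 (gene SREBF2) and the fatty acid genes largely by SREBP-1 (gene SREBF1): SCAP carries both factors from the endoplasmic reticulum to the Golgi, where they are cut and released, and the INSIG proteins hold SCAP back when sterols are plentiful. The LXR receptors respond to oxidised sterols and are known to induce the efflux pumps ABCA1 and ABCG1, the ubiquitin ligase MYLIP, and SREBF1.

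Libraries held 20149635 to 56363300 counted reads. The E42 Anterior series stood apart from the rest: 8 mesenchymal marker genes summed to 13540 to 35450 CPM (normalised counts scaled to library size) there and to 48.3 to 365 CPM in the other 3 series, so the main counts below are also given without it. The 9 radial glial genes, markers of the labelled cell type, summed to between 5558 and 14340 CPM in every library, with no threshold set for them. In E42 Anterior they summed to 5904 to 9099 CPM, below the mesenchymal markers in each library. In E42 Posterior the neuronal markers stood above them on days 14 and 17, at 6637 and 7278 against 5727 and 5586 CPM. On days 17 and 20 of E77 Frontal the astrocyte markers stood above the radial glial ones, at 8041 and 9544 against 7170 and 7561 CPM. The same days of E77 Occipital had 6514 and 7757 against 5558 and 5896 CPM. Radial glial markers went from 7076 to 14340 CPM in the stem phase to 5558 to 7561 CPM in the terminal phase, 12 neuronal markers from 1397 to 3306 CPM to 4322 to 7278 CPM, and 10 proliferation genes from 1547 to 2925 CPM to 584 to 1500 CPM. At the transition 6 of 9 radial glial genes fell and 2 rose, 11 of 12 neuronal genes rose, and 7 of 10 proliferation genes fell. Of all genes tested, 20.0% were lower and 21.6% higher at this step. Microglial markers stayed at or below 1.34 CPM, and 3 of 4 blood genes were at 0 in every library. The part of these shifts in cell type in the results below was not tested, and in bulk RNA fewer cells of a type cannot be told apart from less RNA per cell.

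Levels per gene length were compared on the deposited RPKM scale, as means over the 38 libraries. HMGCS1, which makes HMG-CoA for the mevalonate pathway, was the highest of the 34 genes at 154 RPKM, followed by the fatty acid desaturases SCD at 101 and FADS2 at 94.6 RPKM. Within the sterol class, FDPS, which makes farnesyl diphosphate, stood next at 62.4 RPKM and ACAT2, the cytosolic thiolase that starts the pathway, at 57.2 RPKM. PMVK, the phosphomevalonate kinase, was the lowest sterol enzyme at 4.66 RPKM. SREBF2 had 55.2 RPKM, SREBF1 34.2 and SCAP 31.3, while STARD4, a carrier of cholesterol inside cells, had 6.07 and INSIG2 5.93 RPKM. ABCA1 averaged 25.3 RPKM, well above ABCG1 at 2.00 and MYLIP at 1.29 RPKM. From the lowest to the highest library, SCAP varied 1.51-fold, HMGCS1 7.14-fold, DHCR7, the last reductase before cholesterol, 8.56-fold, and MYLIP 25.3-fold.

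**Figure D1:**
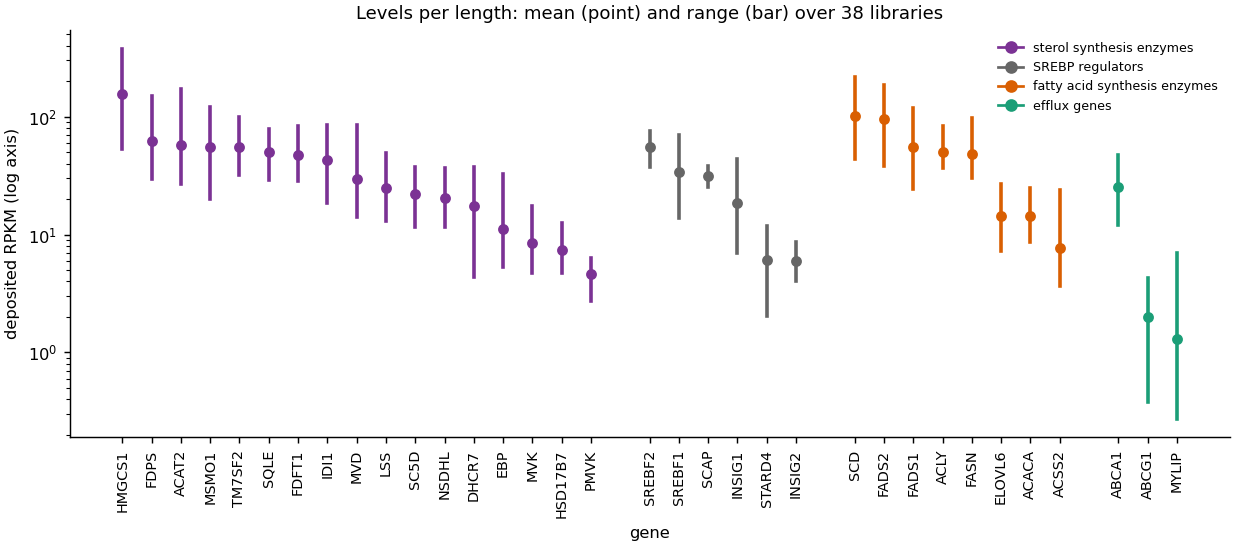
Deposited RPKM on a log axis for each of the 34 genes, with the mean over the 38 libraries as a point and the range as a bar, coloured by class. HMGCS1 leads with a mean of 154 RPKM, and ABCG1 and MYLIP are the lowest.

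All 17 sterol enzymes fell from the stem to the transition phase. This comparison asked how the genes moved once FGF2 was gone and differentiation began. The median log2 fold change of the 17 was -0.91, beside 0.02 for all genes tested, and each passed an adjusted p of 0.05 (edgeR quasi-likelihood test, Benjamini-Hochberg over all genes). Of all genes tested, 20.0% were lower and 21.6% higher. The falls ran from -1.39 ± 0.22 (log2 fold change ± SE) for DHCR7, -1.38 ± 0.14 for FDPS and -1.35 ± 0.17 for HMGCS1 to -0.32 ± 0.09 for PMVK. Both ends of the pathway took part: at its start ACAT2 changed by -1.26 and IDI1, the isoprenoid isomerase, by -1.12, and past squalene LSS, which closes the sterol ring, changed by -0.99, MSMO1, the methylsterol oxidase, by -0.91 and EBP, the sterol isomerase, by -0.97. The falls of MVK (-0.51 ± 0.15), SQLE, the squalene epoxidase (-0.58 ± 0.12), TM7SF2, a sterol reductase (-0.53 ± 0.10), and HSD17B7 (-0.36 ± 0.11) were smaller. Without E42 Anterior, 15 of the 17 passed, and 15 without the libraries of day 1.

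**Figure D2:**
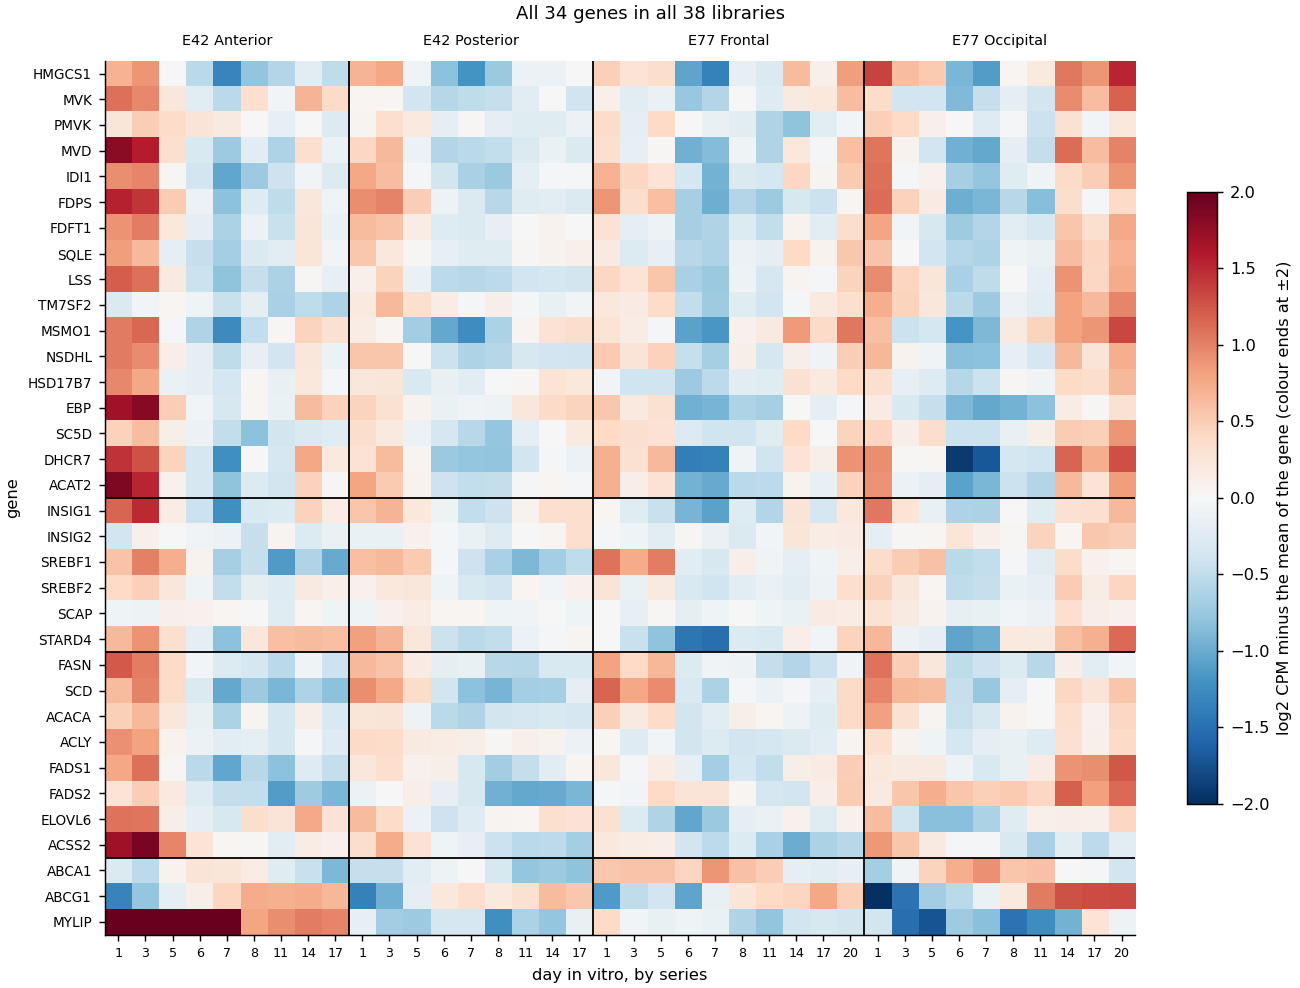
Each row is 1 of the 34 genes and each column 1 of the 38 libraries, ordered by series and day in vitro, with black lines between series and between classes. Colour gives log2 CPM minus the mean of the gene, and the blue band of the sterol enzymes lies on days 6 and 7 of each series.

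HMGCS1, the most abundant of the class, is given by library, and its fall was among the largest of the class. In E42 Anterior its level was 771, 883 and 481 CPM on days 1, 3 and 5, 329, 192 and 278 CPM on days 6, 7 and 8, and 319, 409.5 and 336 CPM on days 11, 14 and 17. In E42 Posterior the same days gave 764, 816 and 455, then 270.1, 209 and 287, then 441, 440.3 and 483 CPM. At both E42 sites each transition library lay below each stem library, and the terminal libraries stayed below days 1 and 3. In E77 Frontal the level was 668, 576 and 613, then 231, 187 and 429, then 392, 742, 513 and 857 CPM, with day 20 as the last value. In E77 Occipital it was 1219, 738 and 684, then 253, 221 and 492, then 547, 998, 879 and 1377 CPM. Day 7 was the lowest library in each of the 4 series, and on day 20 both E77 series stood above their own day 1.

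DHCR7 moved most at the transition. Over the 12 stem libraries it ranged from 48.7 to 130.4 CPM with a median of 69.9, over the 12 transition libraries from 12.7 to 48.4 CPM with a median of 27.9, and over the 14 terminal libraries from 36.4 to 118 CPM with a median of 53.6. The stem and transition ranges did not overlap. The lowest values were 12.7 and 14.8 CPM on days 6 and 7 of E77 Occipital, where days 1, 3 and 5 had 91.6, 48.7 and 49.2 CPM and days 11, 14, 17 and 20 had 36.6, 108, 79.1 and 118 CPM. In E77 Frontal the series ran 78.2, 59.5 and 75.3, then 18.4, 18.8 and 45.8, then 36.4, 58.0, 52.2 and 89.8 CPM. At E42 it ran 130.4, 116 and 65.1, then 38.04, 20.5 and 48.4, then 37.97, 82.2 and 55.1 CPM in Anterior and 58.7, 74.7 and 49.6, then 28.8, 28.2 and 27.7, then 36.9, 46.9 and 44.3 CPM in Posterior. The lowest libraries were thus those of E77 Occipital, and day 1 of E42 Anterior was the highest of all 38.

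PMVK, which had the smallest fall of the class, had no rise after it that passed. It ranged from 10.4 to 16.4 CPM with a median of 14.9 in the stem phase, from 9.85 to 14.03 CPM with a median of 11.6 in the transition phase and from 6.72 to 14.4 CPM with a median of 10.2 in the terminal phase, and the 3 ranges overlapped. By day it read 13.9, 16.4 and 15.1, then 14.03, 13.2 and 11.7, then 10.46, 11.8 and 9.66 CPM in E42 Anterior and 12.1, 14.8 and 13.4, then 10.3, 11.9 and 10.2, then 9.88, 9.92 and 10.8 CPM in E42 Posterior. It read 15.2, 10.4 and 15.5, then 11.8, 10.6 and 10.2, then 7.76, 6.72, 9.99 and 11.3 CPM in E77 Frontal and 16.3, 15.4 and 12.6, then 11.7, 9.85 and 11.6, then 8.73, 14.4, 11.3 and 13.5 CPM in E77 Occipital. PMVK was the sterol enzyme with the weakest likeness to the rest of its class: its log2 CPM had a Pearson r of 0.45 with the mean of the other 16 enzymes over the 38 libraries, where MVD, the mevalonate diphosphate decarboxylase, had 0.97.

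Between the transition and the terminal phase, 16 of the 17 sterol enzymes rose, with a median log2 fold change of 0.56 beside 0.01 for all genes, of which 22.7% were higher and 19.2% lower (edgeR quasi-likelihood test, Benjamini-Hochberg adjusted). This comparison shares its transition libraries with the one before. MSMO1 rose most, by 1.22 ± 0.18 on the log2 scale, followed by DHCR7 with 1.096 ± 0.21, HMGCS1 with 0.99 ± 0.17 and ACAT2 with 0.75 ± 0.17. The smallest rises were those of FDPS (0.39 ± 0.14), which did not pass without day 7 or day 14 of E42 Anterior, and of TM7SF2 (0.27 ± 0.10), which did not pass without any 1 of 10 single libraries. PMVK, at -0.13 ± 0.09, did not pass. Without E42 Anterior 16 passed, and 14 passed without the day 20 libraries. When the 4 series of a day were averaged to 1 value, 4 of the 17 passed.

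Set directly against the stem phase, the terminal phase had 11 sterol enzymes lower and 0 higher, with a median of -0.35 beside 0.00 for all genes, of which 30.4% were lower and 31.9% higher. FDPS stood lowest at -0.99 ± 0.14, ACAT2 stood at -0.51 ± 0.17, LSS at -0.51 ± 0.12 and PMVK at -0.45 ± 0.08. MSMO1 (0.31 ± 0.17), MVK (0.13 ± 0.15), HSD17B7 (0.09 ± 0.11), SQLE (-0.02 ± 0.12), DHCR7 (-0.29 ± 0.21) and HMGCS1 (-0.36 ± 0.16) did not pass. The count of 11 dropped to 4 without E42 Anterior, to 5 without the day 1 libraries, to 5 with 1 value per day, and to 7 without day 3 of E42 Posterior.

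**Figure D3:**
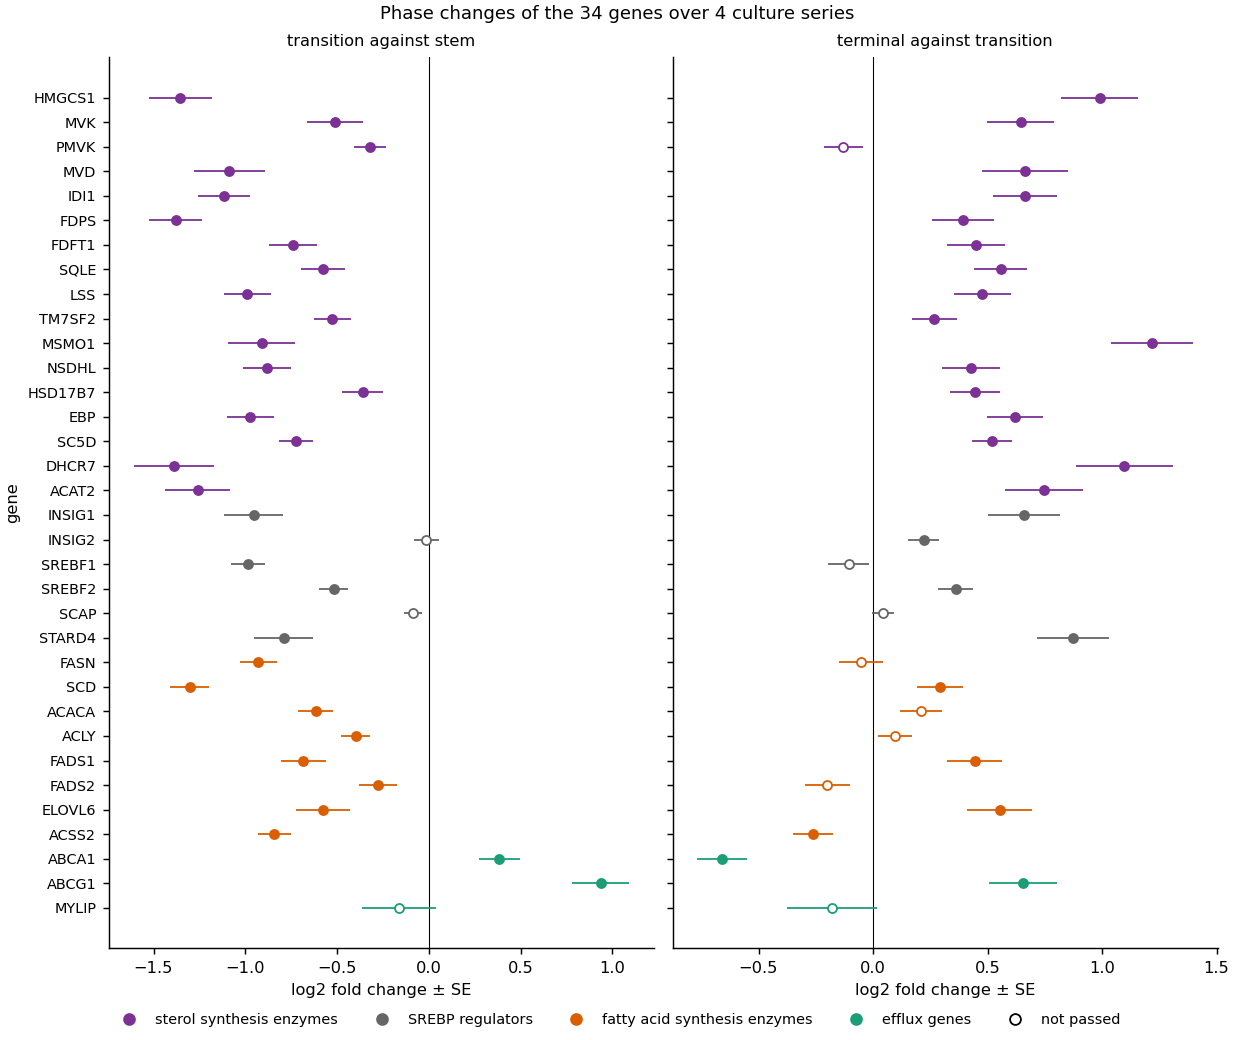
Log2 fold change ± SE of each of the 34 genes in transition against stem (left) and terminal against transition (right), from 1 fit over 38 libraries, with filled points for genes that passed and open points for those that did not. The 17 sterol enzymes lie left of 0 in the first panel, and all but PMVK lie right of 0 in the second.

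The days place the low point more closely. Of the 68 pairs of a sterol enzyme and a series, 61 had their lowest library in the transition phase, 37 of them on day 7 and 18 on day 6. For the fatty acid enzymes this held for 18 of 32 pairs, with another 13 lowest in the terminal phase. Sterol enzymes fell before FGF2 was withdrawn: between day 1 and day 5, 10 of 17 were lower and 0 higher (6.65% of all genes lower, 7.88% higher), with a median of -0.62. ACAT2 (-1.01 ± 0.22), MVD (-0.98 ± 0.29) and MSMO1 (-0.80 ± 0.23) led, while TM7SF2 (0.02 ± 0.21) and PMVK (-0.02 ± 0.15) did not pass. The count was 6 without E42 Anterior, 6 without its day 1 library alone, and 6 without day 5 of E77 Occipital. Of the fatty acid enzymes, 3 of 8 were lower on day 5: ELOVL6, which lengthens fatty acids (-1.01 ± 0.13), FASN, the fatty acid synthase (-0.58 ± 0.14), and ACACA, the acetyl-CoA carboxylase (-0.36 ± 0.12), with 5 lower when day 3 of E42 Anterior was left out.

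On the first day without FGF2, day 6 against day 5, few genes passed anywhere: 0.361% of all genes were lower and 0.0962% higher. Among the sterol enzymes 3 of 17 passed as lower, namely DHCR7 (-1.32 ± 0.29, edgeR adjusted p = 0.0325), HMGCS1 (-1.0 ± 0.21, adjusted p = 0.0262) and FDPS (-0.90 ± 0.18, adjusted p = 0.0249). Among the fatty acid enzymes 3 of 8 passed as lower, namely SCD (-0.92 ± 0.17, adjusted p = 0.0198), FASN (-0.62 ± 0.14) and ACACA (-0.52 ± 0.12). The other 14 sterol enzymes had negative values between -0.78 (LSS) and -0.12 (HSD17B7), and SREBF1 at -0.86 ± 0.21 had an adjusted p of 0.0558. These calls rested on single libraries: 0 sterol enzymes passed without day 5 or day 6 of E77 Frontal or without day 6 of E77 Occipital, 1 without day 5 of E77 Occipital, and 5 without day 3 of E42 Anterior or day 14 of E77 Occipital. The fatty acid count was 0 without day 5 or day 6 of E77 Frontal or without day 6 of E77 Occipital, and 1 without day 5 or day 6 of E42 Posterior, day 1 or day 17 of E77 Frontal, or day 5 or day 17 of E77 Occipital. Without the whole E42 Anterior series, 6 sterol enzymes and 3 fatty acid enzymes passed.

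From day 6 to day 17, the last day that the 4 series share, 13 of 17 sterol enzymes rose (17.9% of all genes higher, 14.4% lower), led by MSMO1 (1.45 ± 0.23) and DHCR7 (1.27 ± 0.29), and 1 of 8 fatty acid enzymes did, ELOVL6 (0.74 ± 0.13). FDPS (0.25 ± 0.18), NSDHL, a sterol dehydrogenase (0.39 ± 0.18), TM7SF2 (0.28 ± 0.21) and PMVK (-0.19 ± 0.15) were the sterol enzymes that did not pass. The sterol count was 8 without day 6 of E77 Frontal, 7 without day 6 of E77 Occipital and 6 without day 17 of E77 Occipital.

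**Figure D4:**
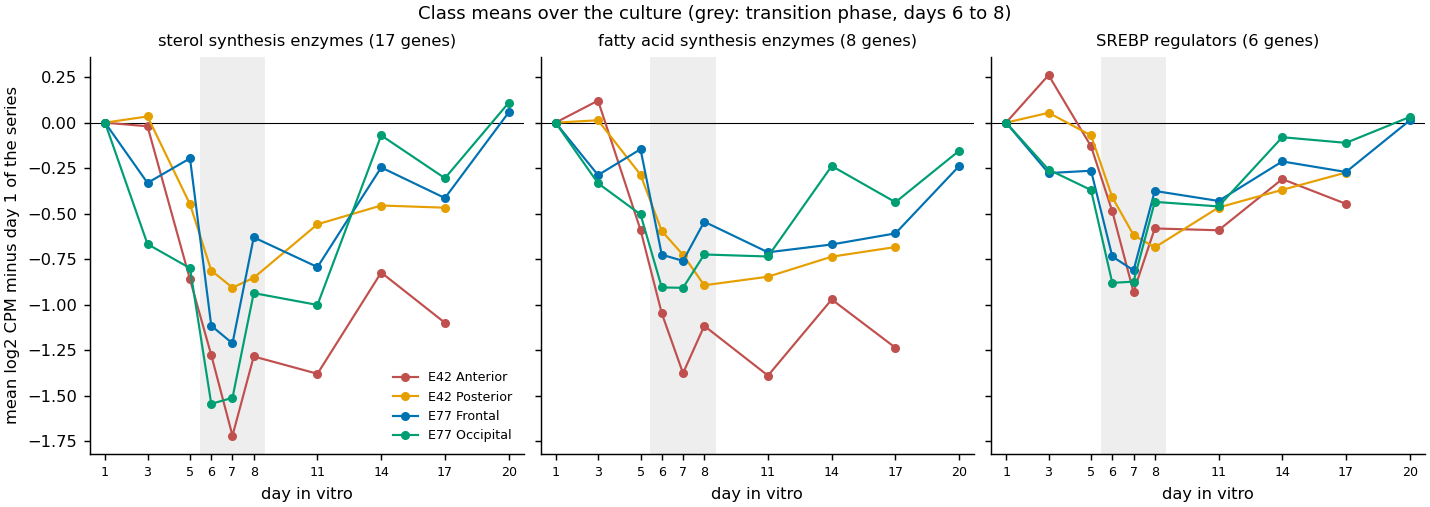
Mean log2 CPM of each class in each library minus that of day 1 of the same series, against day in vitro, with 1 line per series, the transition phase in grey and 1 panel each for the sterol enzymes, the fatty acid enzymes and the SREBP regulators. The sterol line of E42 Anterior reaches -1.72 on day 7, and at E77 the sterol lines stand at 0.06 (Frontal) and 0.11 (Occipital) on day 20, while the fatty acid lines stand at -0.24 and -0.15.

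By series, the sterol enzymes fell and rose by different amounts, which were not tested against each other as a class. The median change of the 17 enzymes from the stem to the transition phase was -1.39 in E42 Anterior and -0.70 in E42 Posterior, beside -0.72 in E77 Frontal and -0.83 in E77 Occipital. From the transition to the terminal phase it was 0.32 and 0.30 in the E42 series and 0.63 and 0.95 in the E77 series, in the same order. All transition libraries lay below all stem libraries for 13 of 17 enzymes in E42 Anterior, where 16.4% of all genes did so, and for 15 in E42 Posterior (13.0%), and at E77 for 11 in Frontal (15.2%) and 11 in Occipital (15.7%). The median from the stem to the terminal phase was -0.83 for E42 Anterior, -0.48 for E42 Posterior, -0.19 for E77 Frontal and 0.15 for E77 Occipital. At E77, day 20 held the highest library for 19 of the 34 pairs of a sterol enzyme and a series. Oligodendrocyte markers also had their highest sum there, 4046 CPM on day 20 of E77 Occipital against 1332 CPM on its day 6, and astrocyte markers had 7757 CPM on that day against 3552 CPM, and the part of these cells in the high sterol levels was not tested.

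Of the SREBP regulators, 4 of 6 fell at the transition (median -0.65), beside 20.0% of all genes lower and 21.6% higher. Between transition and terminal phase 4 of 6 rose (median 0.29), beside 22.7% of all genes higher and 19.2% lower. Of these 4, INSIG1, STARD4 and SREBF2 had fallen before and INSIG2 had not. INSIG1, itself a target of the SREBPs, followed the sterol enzymes, with -0.95 ± 0.16 and then 0.66 ± 0.16, and STARD4 did so with -0.79 ± 0.16 and then 0.87 ± 0.16. INSIG2, which is not known as a target of the SREBPs, had -0.01 ± 0.07, which did not pass, and then 0.22 ± 0.07. SCAP passed in neither, at -0.09 ± 0.05 and 0.04 ± 0.05. Over the 38 libraries SREBF2 had a Pearson r of 0.92 and INSIG1 of 0.89 with the mean log2 CPM of the sterol enzymes, against 0.61 for SREBF1, 0.44 for SCAP and 0.06 for INSIG2. The libraries share series and days, so these values describe them only.

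SREBF2, the more abundant factor per length, was 469.8, 496 and 416 CPM on the stem days of E42 Anterior, 337, 255 and 312 CPM on the transition days and 297, 402 and 384 CPM on the terminal days. The same order gave 379, 414 and 417, then 338, 289 and 274, then 366, 344 and 378 CPM in E42 Posterior. It gave 426, 327 and 404, then 289, 270.1 and 307, then 327, 309, 332 and 449 CPM in E77 Frontal and 491, 418 and 365, then 249.9, 259 and 325, then 317, 506, 395 and 481 CPM in E77 Occipital. Each series thus had its lowest value on day 6, 7 or 8, and the terminal values overlapped the stem values over all libraries. SREBF2 changed by -0.52 ± 0.08 at the transition (edgeR adjusted p = 5.70e-06) and by 0.36 ± 0.08 after it (adjusted p = 0.000345). Its terminal level against the stem phase was -0.16 ± 0.08, which did not pass (adjusted p = 0.0747).

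SREBF1 dropped at the same step. Its level was 213, 288 and 238, then 150.3, 90 and 104, then 65.0, 94.6 and 70.8 CPM in E42 Anterior and 217, 223 and 206, then 140.4, 107 and 90.9, then 76.9, 89.5 and 101 CPM in E42 Posterior. It was 304, 239 and 292, then 122, 114 and 156, then 136, 125, 134 and 157 CPM in E77 Frontal and 184, 202 and 214, then 98.7, 102 and 141, then 122, 184, 152 and 147 CPM in E77 Occipital. The lowest stem library had 183.7 CPM and the highest transition library 156 CPM, so these phases did not overlap, and of the 14 terminal libraries 1, day 14 of E77 Occipital at 184.5 CPM, reached the lowest stem library. SREBF1 did not pass between day 1 and day 5 (0.05 ± 0.21). It changed by -0.99 ± 0.09 at the transition (edgeR adjusted p = 7.30e-09), by -0.11 ± 0.09 from there to the terminal phase (adjusted p = 0.353), and by -1.09 ± 0.09 from the stem to the terminal phase.

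**Figure D5:**
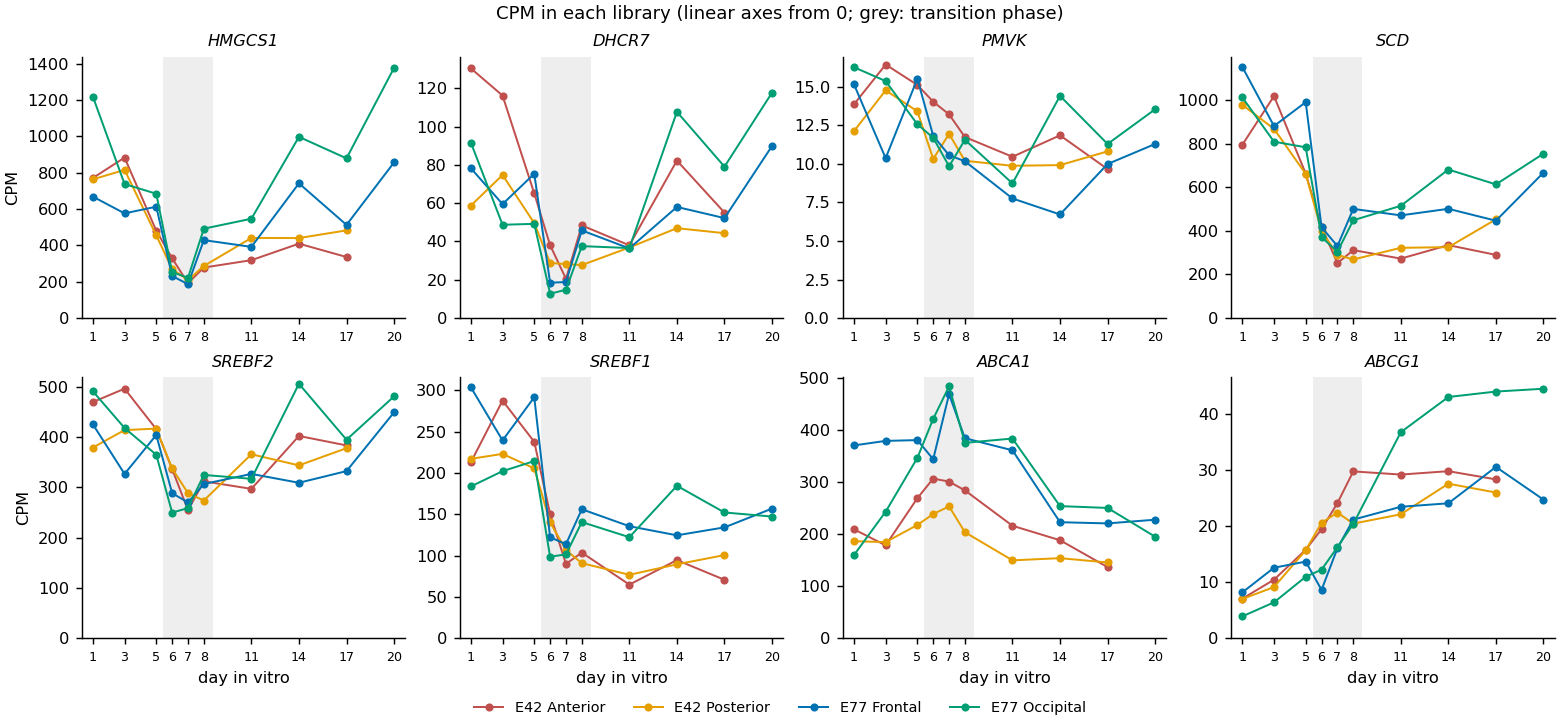
CPM in each of the 38 libraries against day in vitro for 8 genes, on linear axes that start at 0, with 1 line per series and the transition phase in grey. HMGCS1, DHCR7 and SREBF2 dip in the grey band and rise after it, SCD stays below day 1 of each series from day 6 on, and ABCG1 climbs to between 22.1 and 44.5 CPM in the terminal phase.

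Over the 4 series together, all 8 fatty acid enzymes fell at the transition as well (median -0.65), where 20.0% of all genes were lower and 21.6% higher. Without E42 Anterior 7 of the 8 fell, where 3917 of all genes were lower and 3434 higher. The largest falls were those of SCD, the stearoyl-CoA desaturase, of FASN (-0.93 ± 0.10) and of ACSS2, which makes acetyl-CoA from acetate (-0.84 ± 0.09). FADS1, a desaturase of polyunsaturated fatty acids (-0.68 ± 0.12), ACACA (-0.62 ± 0.10), ELOVL6 (-0.58 ± 0.15) and ACLY, the ATP citrate lyase (-0.40 ± 0.08), followed. FADS2, the desaturase that works beside FADS1, had the smallest fall (-0.28 ± 0.10), which did not pass without E42 Anterior, with 1 value per day, in the fit of series and day, or without day 5 of E77 Frontal. In both E42 series each FADS2 transition library lay below each stem library. At E77 the transition libraries lay within the stem range, at 460 to 534 in 431 to 589 CPM in Frontal and 623 to 657 in 513 to 741 CPM in Occipital.

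SCD was 795, 1019 and 663, then 419, 252 and 312, then 273, 335 and 289.9 CPM in E42 Anterior and 979, 869 and 662, then 399.8, 289.8 and 269, then 322, 326 and 453 CPM in E42 Posterior. It was 1153, 881 and 991, then 417, 330.4 and 501, then 471, 502, 447 and 668 CPM in E77 Frontal and 1013, 809.7 and 784, then 372, 304 and 449, then 515, 682, 614 and 755 CPM in E77 Occipital. The stem libraries started at 662 CPM, above the highest transition library at 501 CPM, and the highest terminal libraries, up to 755 CPM, were those of E77. SCD changed by -1.30 ± 0.11 at the transition (edgeR adjusted p = 2.19e-09), by 0.29 ± 0.10 after it (adjusted p = 0.0212) and by -1.01 ± 0.10 over both steps. The second of these did not pass without day 7 or day 14 of E42 Anterior, day 8 or day 17 of E42 Posterior, day 7 of E77 Occipital, or the day 20 libraries.

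From the transition to the terminal phase, 3 of the 8 fatty acid enzymes rose and 1 fell (median 0.15), beside 22.7% of all genes higher and 19.2% lower. ELOVL6 (0.55 ± 0.14), FADS1 (0.45 ± 0.12) and SCD rose, and ACSS2 fell (-0.26 ± 0.09). FASN, at 625 ± 153 CPM (mean ± SD over libraries) in the stem phase, had 327 ± 37.0 CPM in the transition and 317 ± 52.3 CPM in the terminal phase, a change of -0.05 ± 0.10 that did not pass. ACACA (0.21 ± 0.09), ACLY (0.10 ± 0.08) and FADS2 (-0.20 ± 0.10) did not pass. With 1 value per day, 0 of 8 rose by limma's test. Against the stem phase, 6 of 8 were lower in the terminal phase and 0 higher (median -0.44, beside 30.4% of all genes lower and 31.9% higher), with ACSS2 at -1.103 ± 0.09, SCD at -1.01 ± 0.10 and FASN at -0.98 ± 0.10, and with ELOVL6 (-0.03 ± 0.14) and FADS1 (-0.24 ± 0.12) as the ones that did not pass. Without E42 Anterior 5 were lower.

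Both classes of enzymes fell at the transition, and their courses by day are set side by side here. Measured as the mean log2 CPM of each class minus day 1 of the series, averaged over the 4 series, the sterol class stood at -0.58 on day 5, -1.19 on day 6, -1.34 on day 7, -0.93 on day 8, -0.93 on day 11, -0.40 on day 14 and -0.57 on day 17. The fatty acid class stood at -0.38, -0.82, -0.94, -0.82, -0.92, -0.65 and -0.74 on the same days. The sterol shift minus the fatty acid shift was thus below 0 on days 5, 6 and 7, at -0.20, -0.37 and -0.40, at -0.11 on day 8 and -0.01 on day 11, and above 0 on days 14 and 17, at 0.26 and 0.17. Over the 4 series it ranged from -0.60 to -0.18 on day 7, from -0.21 to 0.04 on day 8, from -0.27 to 0.29 on day 11, where the series lay on both sides of 0, from 0.15 to 0.42 on day 14 and from 0.13 to 0.22 on day 17. On day 17 the difference between the class means, before subtracting day 1, was between -1.14 and -1.07 in the 4 series, and on day 1 it was between -1.34 and -1.21. No test of this difference over the members was made.

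The efflux genes are given 1 by 1, because a class of 3 is too small to set against the shares of all genes. At the transition 2 of 3 rose and 0 fell, beside 21.6% of all genes higher and 20.0% lower. After it 1 rose and 1 fell, beside 22.7% of all genes higher and 19.2% lower. ABCG1, a pump that passes cholesterol to lipoprotein particles, was 7.06, 10.4 and 15.8, then 19.4, 24.1 and 29.7, then 29.2, 29.8 and 28.3 CPM in E42 Anterior and 6.995, 9.14 and 15.7, then 20.6, 22.4 and 20.4, then 22.1, 27.6 and 26.0 CPM in E42 Posterior. It was 8.18, 12.6 and 13.7, then 8.63, 16.1 and 21.1, then 23.4, 24.1, 30.5 and 24.7 CPM in E77 Frontal and 3.91, 6.41 and 10.97, then 12.2, 16.2 and 20.4, then 36.7, 43.0, 44.0 and 44.5 CPM in E77 Occipital. Its terminal libraries all lay above its stem libraries, and the rise began while FGF2 was present, with 1.09 ± 0.27 from day 1 to day 5 (edgeR adjusted p = 0.00654). ABCG1 changed by 0.94 ± 0.16 at the transition, by 0.66 ± 0.15 after it and by 1.59 ± 0.15 from the stem to the terminal phase (adjusted p = 2.89e-10).

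ABCA1, the pump that loads cholesterol onto apolipoproteins, peaked in between. It was 209, 178 and 269, then 307, 301 and 284, then 216, 188 and 137 CPM in E42 Anterior and 186, 185 and 218, then 239, 253 and 204, then 149.7, 154 and 146 CPM in E42 Posterior. It was 370.3, 379 and 380.5, then 344, 469 and 384, then 361, 223, 221 and 228 CPM in E77 Frontal and 159.7, 243 and 346, then 421, 484 and 375, then 384, 254, 250.3 and 195 CPM in E77 Occipital. The ranges of the 3 phases overlapped over the 38 libraries, but day 6 or day 7 was the highest library of each series. ABCA1 changed by 0.38 ± 0.11 at the transition (edgeR adjusted p = 0.00645), a rise that did not pass without the day 1 libraries or with 1 value per day, and by -0.66 ± 0.11 after it (adjusted p = 1.41e-05). Over the 38 libraries its log2 CPM had an r of -0.50 with the mean of the sterol enzymes. MYLIP passed in none of the 3 phase comparisons (-0.16 ± 0.20, -0.18 ± 0.20 and -0.34 ± 0.20), and its highest library was day 5 of E42 Anterior at 24.3 CPM, while no library of the other 3 series exceeded 3.63 CPM.

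Ages were compared at matched days, with day as a block. In the stem phase E77 cultures had 8 of 17 sterol enzymes lower than E42 and 0 higher, and 4 of 8 fatty acid enzymes lower and 0 higher, where 31.4% of all genes were lower and 28.8% higher. EBP (-0.75 ± 0.12), MVD (-0.61 ± 0.18) and ACAT2 (-0.54 ± 0.15) led the sterol enzymes, ELOVL6 (-0.72 ± 0.09) and ACSS2 (-0.64 ± 0.11, but 0.08 for E77 Occipital against E42 Posterior alone) the fatty acid enzymes. The sterol count was 1 when E77 Occipital was set against E42 Posterior alone and 3 without the day block, and the fatty acid count was 1 for Occipital against Posterior. In the transition phase 5 sterol enzymes were lower and 0 higher, and 2 fatty acid enzymes were higher and 2 lower (31.1% of all genes lower, 25.7% higher). The counts of sterol enzymes lower and of fatty acid enzymes higher were near these shares. The higher fatty acid enzymes were FADS2 (0.79 ± 0.11) and SCD (0.29 ± 0.11), and 1 was left without day 7 or day 8 of E42 Anterior or without day 8 of any other series. The sterol count was 3 for Occipital against Posterior, 2 without the block, 2 without day 6 of E42 Anterior, and 3 without day 6 of E42 Posterior, E77 Frontal or E77 Occipital or without day 7 of E77 Occipital.

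In the terminal phase 6 sterol enzymes were higher at E77 and 1 lower, and 4 fatty acid enzymes were higher and 2 lower, with 20.6% of all genes higher and 24.4% lower. HMGCS1 (0.69 ± 0.15), TM7SF2 (0.51 ± 0.11) and LSS (0.45 ± 0.14) were the sterol enzymes furthest above E42, and EBP (-0.58 ± 0.12) was the one below it. FADS2 (1.27 ± 0.11, edgeR adjusted p = 4.74e-10), SCD (0.69 ± 0.11) and FADS1 (0.66 ± 0.11) were higher at E77, and ELOVL6 (-0.32 ± 0.09) and ACSS2 (-0.32 ± 0.11, but 0.13 for Occipital against Posterior alone) lower. SREBF1 was higher at E77 by 0.78 ± 0.12, while SREBF2 stood at -0.002 ± 0.09, which did not pass. ABCA1 was higher at E77 in all 3 phases (0.56 ± 0.11, 0.65 ± 0.11 and 0.75 ± 0.11), and MYLIP was lower in all 3 (-1.52 ± 0.23, -1.33 ± 0.23 and -0.76 ± 0.23). For Occipital against Posterior alone the MYLIP difference was -0.58 in the stem, -0.37 in the transition and 0.00 in the terminal phase.

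Whether a change differed between the ages was tested as an interaction. For the step from stem to transition 1 sterol enzyme, TM7SF2 (-0.60 ± 0.16, edgeR adjusted p = 0.027), and 1 fatty acid enzyme, FADS2 (0.65 ± 0.15, adjusted p = 0.0106), passed, beside 5.43% of all genes. For the step from transition to terminal phase TM7SF2 (0.90 ± 0.16, adjusted p = 0.00105), SREBF1 (0.67 ± 0.18, adjusted p = 0.014), FADS2 (0.48 ± 0.15, adjusted p = 0.037) and ABCG1 (0.84 ± 0.15, adjusted p = 0.000878) passed, beside 13.1% of all genes. TM7SF2 changed by -0.35 in E42 Anterior and -0.15 in E42 Posterior but by 0.53 in E77 Frontal and 1.05 in E77 Occipital. SREBF1 changed by -0.58 and -0.34 in the E42 series and by 0.08 and 0.42 in the E77 series, and ABCG1 by 0.25 and 0.25 and by 0.75 and 1.37. These changes by series include day 20 at E77, a day without E42 libraries to match. For HMGCS1 the difference between the ages was 0.55 ± 0.21 (adjusted p = 0.0834) and for DHCR7 0.73 ± 0.28 (adjusted p = 0.0848), neither of which passed. The first TM7SF2 difference did not pass without any 1 of 15 single libraries, and neither it nor the first FADS2 difference passed for Occipital against Posterior alone or without the day block. Also lost were the second FADS2 difference without any 1 of 13 libraries, that of SREBF1 for Occipital against Posterior alone, and that of ABCG1 without the day block. The remaining sterol enzymes had differences between 0.00 and 0.53. At both steps the share of the genes described here that passed was near that of all genes.

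Between the regions of an age, over all days, E42 Anterior had 6 sterol enzymes higher than Posterior and 1 lower, and 3 fatty acid enzymes higher, where 25.1% of all genes were higher and 30.3% lower. MVK (0.59 ± 0.11), DHCR7 (0.44 ± 0.16) and MSMO1 (0.38 ± 0.12) led the sterol enzymes, TM7SF2 was lower (-0.44 ± 0.09), and ACSS2 had 0.66 ± 0.09. MYLIP was higher in Anterior by 2.40 ± 0.18 (edgeR adjusted p = 1.40e-11), the widest gap between regions among the 34 genes. The mesenchymal markers differed the same way, and their part in these differences was not tested. The sterol count was 3 without day 14 of E42 Posterior and 2 without the day block, and the fatty acid count was 5 without day 5 of E42 Anterior and 1 without the block. At E77, Frontal had 3 sterol enzymes and 4 fatty acid enzymes lower than Occipital and 0 higher (13.8% of all genes lower, 16.3% higher), among them HMGCS1 (-0.42 ± 0.12), FADS2 (-0.55 ± 0.08) and FADS1 (-0.34 ± 0.09), and STARD4 was lower by -0.54 ± 0.11. The sterol count was near the share of all genes lower. It was 1 without day 3 of Frontal or without day 1, 8 or 14 of Occipital, 5 without day 5 of Frontal, and 0 without the block. The fatty acid count was 2 without the block.

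Other genes of the pathway, listed by function and not among the 34, were counted in the same fit. They stand beside 20.0% of all genes lower and 21.6% higher at the transition, and 22.7% higher and 19.2% lower after it. Of 5 further sterol enzymes, 4 fell at the transition and 0 rose, with CYP51A1, the lanosterol demethylase, at -0.95 ± 0.16. From the transition to the terminal phase 4 of the 5 rose and 1 fell, with CYP51A1 at 0.99 ± 0.16. Of 24 other genes of fatty acid synthesis, 10 fell and 1 rose at the transition, and 12 rose and 5 fell after it, led by ME1, the malic enzyme (-0.998 ± 0.19), and by ACSL4, an acyl-CoA synthetase (0.83 ± 0.12). Of 6 genes that process the SREBPs, 1 fell at the transition, ERLIN1 (-0.27 ± 0.04), a share near that of all genes, and 3 rose after it, with RNF139 at 0.47 ± 0.06. Of 10 genes of the isoprenoid branch, which makes ubiquinone, dolichol and prenyl groups from the same precursors, 2 fell at the transition and 0 rose, with FNTB, a farnesyltransferase subunit, at -0.32 ± 0.05, which is the share of all genes that fell.

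The genes whose log2 CPM was most like the mean of the 17 sterol enzymes were sought among 13044 other genes with a mean of at least 5 CPM. Among the 10 genes with the highest Pearson r over the 38 libraries were CYP51A1 at 0.91, CYB5B, a cytochrome b5, at 0.88, SLC25A1, the mitochondrial citrate carrier, at 0.855, PCYT2, an enzyme of phosphatidylethanolamine synthesis, at 0.84, and MRPL40, a mitochondrial ribosomal protein, at 0.84. The most negative values among genes with a symbol were those of ARID2, a chromatin remodelling subunit, at -0.82, PIK3R3 at -0.81 and ARIH1 at -0.78.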

How the data were processed

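Total RNA of 38 cultures was made into strand-specific poly(A) libraries, per the labels' protocols. STAR and featureCounts are named, per the submitters' processing notes; versions, genome build, annotation and strand setting are not given in the sources used here. The authors deposited gene counts and, in a second table, RPKM, and the deposited RPKM equal counts divided by the column total and a fixed length per gene. Genes were matched by symbol or, for HSD17B7, CYP51A1 and CYP46A1, by gene ID in the RefSeq table of assembly T2T-MMU8v2.0. Counts were normalised by TMM and filtered with filterByExpr, and edgeR 4.0.16 (R 4.3.3) quasi-likelihood tests were fitted over 20794 genes with Benjamini-Hochberg adjustment and a threshold of 0.05. The phase fit used 12 groups of series and phase, with days as replicates (26 residual degrees of freedom), the day fit used series and day (25), and the age and region fit used 12 groups with day as block (19). Same-day libraries deviated together from their group means in 44 of 55 pairs (r above 0.1, median 0.22). No 2 libraries agreed within sampling noise (lowest ratio of spread to counting noise 10.2 over 703 pairs). CPM of single genes are TMM-normalised, summed marker CPM are not, and log2 CPM used a prior count of 2. Values of every library are given, per class, for the member with the highest mean RPKM and the member with the largest change at the transition, and for the sterol enzyme with the smallest change; at most 2 genes are named per list of other genes. Alternatives were DESeq2 1.42.0 size factors and Wald test, no filter, limma 3.58.1 on log2(RPKM + 1) and log2(RPKM + 0.1) of genes with at least 1 RPKM in at least 3 libraries, leaving out each library, leaving out E42 Anterior, day 1 or day 20, 1 value per day, Occipital against Posterior alone and no block. The tests were tested on simulated data. The members, gene lists and tests were chosen with earlier results of these data known. Promoter and protein sequences were not analysed here, and some genes of the lists of other genes are not reported here.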

Additional observations from a re-analysis of the deposited data

Results flagged for a closer look

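The terminal phases of the E77 series are the only groups of 4 libraries, which makes 68 groups over the 34 genes. In 4 of them 1 library lay far from the other 3 by Dixon's criterion, at a level that chance passes in about 1 of 20 groups. SREBF2 was highest at 449 CPM in E77 Frontal, on day 20, against 327, 309 and 332 CPM on days 11, 14 and 17. ELOVL6 was highest at 60.4 CPM in E77 Occipital, on day 20, against 48.4, 49.6 and 48.7 CPM on days 11, 14 and 17. ABCA1 was highest at 361 CPM in E77 Frontal, on day 11, against 223, 221 and 228 CPM on the later days. MYLIP was lowest at 1.60 CPM in E77 Frontal, on day 11, against 2.12, 2.22 and 2.15 CPM later.

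For 4 genes a phase change differed between the ages by a test of the difference itself (edgeR quasi-likelihood test). Of all genes tested, 5.43% passed for the change at the transition and 13.1% for the change after it. The share of the genes described here that passed was near these at both steps. The change of TM7SF2 at the transition was lower at E77 by -0.60 on the log2 scale, and its change after it was higher by 0.90. The first of these passed in the fit of all libraries but not without any 1 of 15 single libraries, with differences between -0.59 and -0.44. FADS2 changed more positively at E77 in both steps, by 0.65 and by 0.48. The first did not pass for Occipital against Posterior alone or without the day block, and neither did the first of TM7SF2. The second FADS2 difference did not pass without any 1 of 13 single libraries, with differences between 0.37 and 0.50. After the transition SREBF1 changed more positively at E77 by 0.67 and ABCG1 by 0.84.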

How the results depend on the processing

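The phase comparisons set phases against each other within each series and could not be blocked by day, because no day belongs to more than 1 phase; with series and day as factors, 17 sterol and 7 fatty acid enzymes fell at the transition, 15 and 4 rose after it, and 13 and 7 were lower in terminal than in stem libraries. The age and region results were fitted with day in vitro as a replicate block, since the labels give the same days to all series, and the counts without that block stand below. Of 3229 values of single genes under the alternatives other than leaving out 1 library, 2944 kept their direction and their side of the threshold and 4 reversed, all for E77 Occipital against E42 Posterior alone: ACSS2 in the stem phase (0.084), and STARD4 (0.548), ACSS2 (0.126) and MYLIP (0.001) in the terminal phase. Of 16796 values with 1 library left out, 16224 kept both and 0 reversed. The cause of the changes below was not tested; 1 value per day and single-site comparisons use fewer samples by construction.

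With 1 value per day, the enzymes higher in terminal than in transition libraries were 4 (sterol, 16 in the full fit) and 0 (fatty acid, 3), and the sterol enzymes lower in terminal than in stem libraries were 5 (11); the latter were 5 without day 1 and 4 without E42 Anterior. Without E42 Anterior, sterol enzymes lower on day 5 than on day 1 were 6 (10) and on day 6 than on day 5 were 6 (3), the same number as with the DESeq2 Wald test (6). For E77 against E42 in the stem phase, Occipital against Posterior alone gave 1 sterol enzyme lower (8) and 1 fatty acid enzyme lower (4), and the fit with no replicate block gave 3 sterol enzymes. In the transition phase sterol enzymes lower were 3 with limma at either pseudocount, 3 for Occipital against Posterior and 2 with no block (5), and fatty acid enzymes higher were 4 with limma at either pseudocount, 1 for Occipital against Posterior and 1 with no block (2). For the age difference of the change at the transition, sterol enzymes were 0 with no low-count filter, for Occipital against Posterior and with no block (1), and fatty acid enzymes were 3 with DESeq2 size factors, 3 with the Wald test, and 0 for Occipital against Posterior and with no block (1). For that of the change after the transition, sterol enzymes were 2 with the Wald test (1), and fatty acid enzymes were 0 with no filter and with limma at either pseudocount and 2 for Occipital against Posterior (1). Between Anterior and Posterior, sterol enzymes higher were 3 with limma at either pseudocount and 2 with no block (6), and fatty acid enzymes higher were 1 with no block (3). Between Frontal and Occipital, sterol enzymes lower were 0 with no block (3) and fatty acid enzymes lower 2 (4).

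Leaving out each of the 38 libraries in turn gave 17 to 17 sterol and 7 to 8 fatty acid enzymes in transition against stem, 14 to 16 sterol and 2 to 4 fatty acid enzymes in terminal against transition, 7 to 12 sterol and 6 to 7 fatty acid enzymes in terminal against stem. The ranges were 6 to 13 sterol and 2 to 5 fatty acid enzymes on day 5 against day 1, 0 to 5 sterol and 0 to 3 fatty acid enzymes on day 6 against day 5, 6 to 14 sterol and 1 to 1 fatty acid enzymes on day 17 against day 6. They were 7 to 10 sterol and 3 to 4 fatty acid enzymes for E77 against E42 in the stem phase, 2 to 7 sterol and 1 to 3 fatty acid enzymes for it in the transition phase, 4 to 8 sterol and 3 to 4 fatty acid enzymes for it in the terminal phase. They were 0 to 1 sterol and 1 to 4 fatty acid enzymes for the age difference at the transition, 1 to 3 sterol and 0 to 3 fatty acid enzymes for the age difference after the transition, 3 to 9 sterol and 3 to 5 fatty acid enzymes for Anterior against Posterior, 1 to 5 sterol and 3 to 4 fatty acid enzymes for Frontal against Occipital.

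Over all genes, the balance of calls with limma on log2(RPKM + 1), which tests fewer genes, was 3490 higher and 4558 lower in terminal against transition (4713 and 4000 with edgeR), 100 higher and 70 lower on day 6 against day 5 (20 and 75), 1089 higher and 1668 lower for the age difference after the transition (1464 and 1254) and 3429 higher and 8020 lower for Anterior against Posterior (5209 and 6293), where the median of all genes was -0.13 (log2). For the age difference at the transition it was 897 higher and 420 lower with DESeq2 size factors (586 and 543). Each series has 1 library per day, which limits every comparison of single days, and of the 34 genes only MYLIP had a library under 100 reads.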

Other observations

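Fatty acid oxidation and LXR genes, listed by function and not among the 34, were counted in the same fit. Of 13 oxidation genes tested, 4 rose and 3 fell at the transition, and 0 rose and 8 fell from the transition to the terminal phase. PDK4, the kinase that switches off pyruvate dehydrogenase, had 2.23 ± 0.43 and then -3.36 ± 0.45 on the log2 scale. Of 12 genes around LXR and other efflux routes, 2 rose and 2 fell at the transition, with the apolipoprotein gene APOE at 1.15 ± 0.24, and 0 rose and 6 fell after it, with the receptor gene NR1H3 at -1.26 ± 0.21. Of 9 genes of sterol uptake and storage, 1 rose and 5 fell at the transition, with the lipoprotein receptor SCARB1 at -1.04 ± 0.11, and 2 rose and 2 fell after it, with LRP8, an APOE and reelin receptor, at 0.61 ± 0.06. All are edgeR quasi-likelihood calls at an adjusted p of 0.05, beside 21.6% of all genes higher and 20.0% lower in the first comparison and 22.7% and 19.2% in the second. Near these shares were both counts of the LXR and efflux list at the transition and both of the uptake and storage list after it. The count of oxidation genes that fell at the transition was also near its share.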
